A study of Mus musculus with 12 samples.

Results

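The comparison set the 4 DKO-severe libraries against the 4 DKO-moderate libraries, which are 8 of the 12 RNA sequencing libraries of the series, and the libraries were chosen by their labels alone. Each library came from 1 mouse, 14 weeks old, and held CD4+ T cells that lacked YFP, the reporter of FOXP3, sorted from spleen pooled with the cervical and inguinal lymph nodes of that mouse. Both DKO groups were Foxp3-Cre Tet2/3 fl/fl mice, in which a Cre expressed from *Foxp3* deletes loxP-flanked *Tet2* and *Tet3*, and the authors split these mice into moderate and severe by the number of leukocytes in spleen and peripheral lymph nodes. The 4 libraries of Foxp3Cre WT mice, which had the Cre and no floxed allele, served here as the reference level and entered the fit for their share of the spread. The labels name no treatment of any mouse. The model limits what a count can say. Cre from *Foxp3* is known to act also in some cells outside the regulatory lineage, so the sorted cells are an unknown mixture of cells with both genes intact, cells that had once been FOXP3+ and lost it, and cells in which Cre acted without lasting FOXP3.

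TET enzymes oxidize 5-methylcytosine and help to keep the *Foxp3* locus active, and regulatory T cells that lose FOXP3 no longer restrain other T cells. A resting naive CD4+ T cell keeps homing receptors and quiescence factors on and the cell cycle off, and an activated one does the reverse, divides, and takes up helper programmes. Interferons act through transcription factors that bind shared DNA elements and raise the level of antiviral and antigen-presentation genes. A sorted population can also carry a few cells of other kinds or their free RNA. Neutrophil granule genes and most B cell genes are nearly silent in T cells, so that small admixtures of either cell type show in these genes first.

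Genes of mitosis were higher in DKO-severe and interferon response genes were lower, as described below. The start regions of members of both groups are printed here because members of each share a short DNA element. Each sequence is the 250 bases before the start of the gene, from RefSeq on GRCm38.p6 (the assembly that mm10 stands for), read 5′ to 3′ on the strand of the gene. Capitals mark the letters CCAAT and TTTGAA, on either strand, in the mitosis genes, where they are known as the NF-Y box and the cell cycle homology region, and the letters GAAANNGAA, on either strand, in the interferon genes, where they are the core of the interferon-stimulated response element. *Ccnb1* encodes cyclin B1, which drives entry into mitosis with the kinase encoded by *Cdk1*, and *Plk1* encodes a kinase of the mitotic spindle. *Ifit1* encodes an antiviral RNA-binding protein and *Igtp* an interferon-induced GTPase.
*Ccnb1* (chr13:100786487-100786736, minus strand): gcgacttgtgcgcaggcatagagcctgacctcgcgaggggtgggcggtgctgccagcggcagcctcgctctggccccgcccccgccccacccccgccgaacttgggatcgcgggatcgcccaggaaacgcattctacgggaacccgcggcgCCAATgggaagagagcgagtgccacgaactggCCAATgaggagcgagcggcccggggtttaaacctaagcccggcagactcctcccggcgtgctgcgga
*Cdk1* (chr10:69352913-69353162, minus strand): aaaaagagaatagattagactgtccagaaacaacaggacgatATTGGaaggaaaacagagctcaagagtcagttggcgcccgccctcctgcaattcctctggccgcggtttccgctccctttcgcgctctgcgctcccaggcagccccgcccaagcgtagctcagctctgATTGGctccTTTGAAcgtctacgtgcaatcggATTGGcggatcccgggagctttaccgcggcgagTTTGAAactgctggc
*Plk1* (chr7:122159185-122159434, plus strand): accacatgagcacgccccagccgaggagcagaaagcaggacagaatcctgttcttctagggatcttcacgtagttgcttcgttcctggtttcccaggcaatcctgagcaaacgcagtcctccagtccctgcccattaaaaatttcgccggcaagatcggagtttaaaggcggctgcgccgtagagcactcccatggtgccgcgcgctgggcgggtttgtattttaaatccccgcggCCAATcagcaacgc
*Ifit1* (chr19:34640639-34640888, plus strand): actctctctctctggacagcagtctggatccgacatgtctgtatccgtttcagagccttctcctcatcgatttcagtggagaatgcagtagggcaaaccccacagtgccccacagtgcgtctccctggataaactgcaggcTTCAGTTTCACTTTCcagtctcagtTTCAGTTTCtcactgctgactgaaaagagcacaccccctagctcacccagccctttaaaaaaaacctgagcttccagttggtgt
*Igtp* (chr11:58199306-58199555, plus strand): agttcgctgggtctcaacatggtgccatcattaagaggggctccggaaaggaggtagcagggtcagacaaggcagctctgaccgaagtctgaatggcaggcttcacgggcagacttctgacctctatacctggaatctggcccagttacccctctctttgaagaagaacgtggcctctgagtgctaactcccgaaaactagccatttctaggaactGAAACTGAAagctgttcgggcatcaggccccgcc
In *Ccnb1* the CCAAT letters begin 99 and 67 bases before the start, in *Cdk1* they begin 208, 80, and 48 bases before it, and in *Plk1* 14 bases before it. The 3 matches of GAAANNGAA in *Ifit1* begin 109, 103, and 84 bases before the start, the first 2 of them overlapping. Of the 38 genes of the mitosis list, 33 were found in the RefSeq table, and 22 of them (66.7%) held CCAAT, against 34.5% of all 27025 start regions of this length. TTTGAA was held by 10 of the 33 (30.3%), against 16.3% of all. These letters were not limited to the mitosis list, since 8 of the 15 interferon gamma genes that were found held CCAAT (53.3%) and 5 held TTTGAA (33.3%), with 8 (34.8%) and 4 (17.4%) of the 23 type I genes. GAAANNGAA was held by 11 of the 23 type I interferon genes that were found (47.8%) and by 9 of the 15 interferon gamma genes (60.0%), against 7.16% of all start regions and 2 of the 33 mitosis genes (6.06%). These are matches of letters, which do not show that a factor was bound.

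Reads counted on genes ran from 30138292 to 42133536 over the DKO-moderate libraries and from 29254260 to 39662385 over the DKO-severe libraries, with no difference past the threshold (exact permutation test, two-sided p = 0.429). The reads were spread over more genes in DKO-severe. There the top 10 genes of a library held 4.41% to 4.56% of its counts, compared with 5.01% to 5.16% in DKO-moderate, and the top 100 held 16.5% to 17.1% and 18.2% to 21.0%. Neither measure overlapped between the groups, nor did the number of genes with at least 10 reads (mean 13480 and 13070), and each had the smallest p that 4 against 4 can give (exact permutation test, p = 0.0286). Their part in the results below was not tested. Levels are given as CPM, read counts scaled by TMM to a common library total, and the libraries of a group are listed in the order 1 to 4. The T cell genes *Cd3e* and *Cd4* were at 484, 514, 439.7, and 465 CPM in the DKO-moderate mice and at 517, 467, 473, and 450.3 CPM in the DKO-severe mice for the first and at 1368, 1361, 1356, and 1225 CPM in the DKO-moderate mice and at 938, 1325, 1271, and 1064 CPM in the DKO-severe mice for the second, with neither past the threshold (adjusted p = 0.982 and 0.23), while *Cd8a* was at 0.106, 0.126, 0.0994, and 0.0795 CPM in the DKO-moderate mice and at 3.15, 7, 0.0476, and 0.0239 CPM in the DKO-severe mice and did not pass either (adjusted p = 0.074). *Foxp3*, whose reporter the sorted cells lacked, was at 0.984, 1.7, 0.845, and 0.291 CPM in the DKO-moderate mice and at 0.13, 0.426, 0.833, and 0.144 CPM in the DKO-severe mice. Y-linked transcripts were at or near 0 in DKO-moderate 2, DKO-moderate 4, and DKO-severe 3, and a term for them in the fit left 3185 genes past the threshold in place of 3217. DKO-severe 1 and 2 stood apart by transcripts of other cell types. The 25 genes of the neutrophil list summed to 2870.1 CPM in DKO-severe 1 and 1119.8 CPM in DKO-severe 2, against 34.5 to 73.0 CPM in DKO-moderate, and the 17 counted genes of the B cell list to 584.9 CPM in DKO-severe 2, against 36.6 to 72.2 CPM. WT 3 stood apart too, at 359.7 CPM of the B cell list where the lowest WT library was at 34.4 CPM, and it entered the comparison through the spread estimated over all groups. The counts of the lists are therefore given again without DKO-severe 1 and 2, and genes that lost their call there are named as such. Where a bulk sample has less of a transcript, fewer cells of a type and less RNA per cell cannot be told apart.

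DKO-severe cells differed from DKO-moderate cells in 3217 of 16035 genes tested (20.1%), 1509 of them higher (9.41%) and 1708 lower (10.7%), by edgeR's quasi-likelihood test with a threshold of 0.05 on the Benjamini-Hochberg adjusted p, which is the adjusted p given throughout. The median log2 fold change was -0.027 over all genes, 1.38 over those higher, and -0.61 over those lower, so that the higher genes moved further. The total fell to 1646 without DKO-moderate 1, 1815 without DKO-moderate 3, 1971 without DKO-severe 1, 1997 without DKO-severe 3, and 1989 without DKO-severe 4. For 1101 of the 1509 higher genes and 1357 of the 1708 lower genes, the values of the DKO-severe libraries and of the DKO-moderate libraries did not overlap. The same comparison had picked these genes, so these counts give no separate support, and the share over all genes is not reported here. Scaling by DESeq2's size factors put 59.6% of the changed genes higher and library size alone 64.9%, against 46.9% with TMM, and these scalings moved the median of all genes to 0.048 and 0.079, a shift to set beside the falls of small size given here.

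Without DKO-severe 1 and 2, that is with DKO-severe 3 and 4 against the 4 DKO-moderate libraries, 2114 of 15630 genes (13.5%) passed, 1235 higher (7.9%) and 879 lower (5.62%). Of the 1509 genes called higher with all libraries, 1065 (70.6%) were also called higher there, and of the 1708 called lower, 790 (46.3%). Conversely, 86.2% of the 1235 and 89.9% of the 879 were among the calls made with all libraries. The fold changes themselves moved little. The median over the higher genes was 1.38 with all libraries and 1.42 without the pair, and over the lower genes -0.61 and -0.59. Of the higher genes, 47 kept less than 50% of their log2 fold change, 2 of these with a change of sign, and 27 could not be tested for lack of reads. Among the lower genes, 3 kept less than 50%. In 9 of the 1509 higher genes both DKO-severe 3 and DKO-severe 4 lay within or below the range of DKO-moderate, and 2 of these 9 were members of the lists for other cell types. These genes had passed a test on all DKO-severe libraries, where a rise in only 2 of them widens the spread. The count of 9 therefore does not give the number of differences that rest on DKO-severe 1 and 2.

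**Figure D1:**
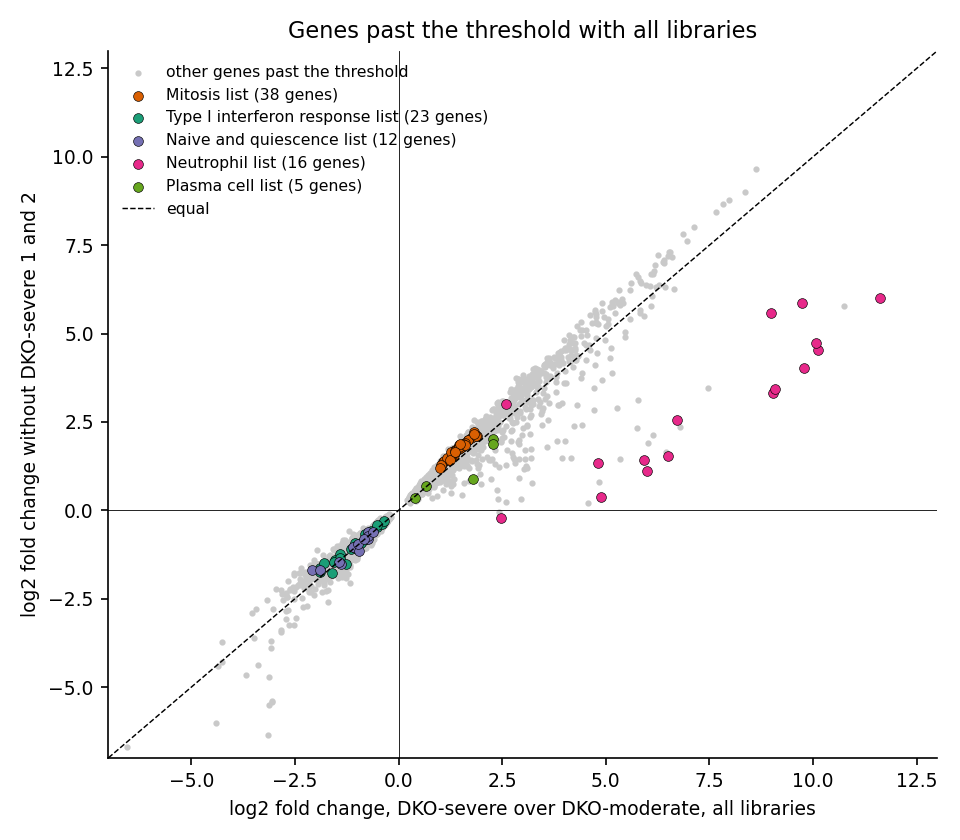
Log2 fold change of DKO-severe over DKO-moderate with all libraries (x axis) against the same without DKO-severe 1 and 2 (y axis), for the 3190 genes past the threshold with all libraries that could be tested in both. Mitosis genes lie on or above the line of equal values and interferon and naive genes lie along it, while most neutrophil genes fall well below it.

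Across the changed genes, DKO-severe 2 was most often the DKO-severe library nearest to DKO-moderate. It held the lowest value of the 4 in 1006 of the 1509 higher genes (66.7%) and the highest in 979 of the 1708 lower genes (57.3%). DKO-severe 1 lay farthest from DKO-moderate in 490 of the higher genes (32.5%) and 933 of the lower genes (54.6%). Leaving out DKO-severe 1 and 4 left 379 calls, leaving out 1 and 3 left 426, and leaving out 3 and 4 left 634, against 2598 without 2 and 3 and 2293 without 2 and 4. These 5 pairs were chosen after seeing the data.

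Genes of mitosis were higher in DKO-severe without exception in the list. All 38 passed the threshold, where 9.41% of all genes were called higher, with a median log2 fold change of 1.46, and all 38 passed again without DKO-severe 1 and 2, with a median of 1.75. *Mki67*, which encodes the proliferation antigen Ki-67, was at 73.1, 78.4, 105, and 99.6 CPM in the DKO-moderate mice and at 289, 194, 258, and 457 CPM in the DKO-severe mice (log2 fold change 1.75, SE 0.29, adjusted p = 0.00423). Every DKO-severe library was above every DKO-moderate library, and all 8 were above the WT libraries at 21.6 to 49.1 CPM. *Top2a*, the topoisomerase that untangles replicated chromosomes, was at 84.2, 85.5, 108, and 131 CPM in the DKO-moderate mice and at 298, 158, 254, and 431 CPM in the DKO-severe mice (log2 fold change 1.48, SE 0.27, adjusted p = 0.00546). *Cenpe*, a motor of the kinetochore, was at 13.4, 13.3, 18.8, and 17.8 CPM in the DKO-moderate mice and at 48.9, 31.6, 42, and 80.1 CPM in the DKO-severe mice (log2 fold change 1.68, SE 0.25, adjusted p = 0.00344), and its groups did not overlap either. *Ccnb1*, whose start region is shown above, was at 9.65, 14.5, 13.7, and 23.2 CPM in the DKO-moderate mice and at 46.4, 23.5, 34.4, and 64.6 CPM in the DKO-severe mice (log2 fold change 1.47, SE 0.32, adjusted p = 0.00983), with DKO-severe 2 only just above DKO-moderate 4. *Plk1* was at 9.2, 12.1, 12.8, and 21.5 CPM in the DKO-moderate mice and at 37.9, 18, 26.8, and 50.8 CPM in the DKO-severe mice (log2 fold change 1.26, SE 0.33, adjusted p = 0.0214). In *Plk1* the groups overlapped, since DKO-severe 2 lay below DKO-moderate 4, and the same pair of libraries overlapped in *Cdk1*, at 7.87, 10.7, 10.7, and 26.4 CPM in the DKO-moderate mice and at 45.4, 22.6, 35.8, and 60.2 CPM in the DKO-severe mice (log2 fold change 1.56, SE 0.40, adjusted p = 0.0202). *Birc5*, an inhibitor of apoptosis that also acts in mitosis, had the adjusted p closest to the threshold (log2 fold change 1.06, SE 0.35, adjusted p = 0.0483) and lost its call without WT 1, 2, or 3 or DKO-moderate 1, 2, or 3 or DKO-severe 1, 3, or 4 (adjusted p = 0.0528 to 0.13). *Cdk1* did so without DKO-moderate 1 or 3 or DKO-severe 4 (adjusted p = 0.0534 to 0.0615), and *Plk1* without DKO-moderate 1 or 3 or DKO-severe 1 or 4 (adjusted p = 0.0532 to 0.066).

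Summed over the list, mitosis genes reached 556, 606, 741, and 1000.4 CPM in DKO-moderate and 2069, 1154, 1715, and 3064 CPM in DKO-severe, and 215 to 357 CPM in WT. DKO-severe 4 was the highest and DKO-severe 2 the lowest of its group, still above the highest DKO-moderate library. The library with the most neutrophil transcript, DKO-severe 1, was second in mitosis genes. The library with the most B cell transcript, DKO-severe 2, was last. What these ranks owe to other cell types was not tested. Leaving out DKO-severe 3 and 4 in place of 1 and 2 left 6 of the 38 genes past the threshold, with a median of 1.11. No single library left out took the count below 27.

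Regulators of this programme moved with it. *Foxm1*, a transcription factor of the late cell cycle, was at 8.08, 9.3, 10.4, and 12.5 CPM in the DKO-moderate mice and at 26.4, 15.6, 21.9, and 39.5 CPM in the DKO-severe mice (log2 fold change 1.36, SE 0.28, adjusted p = 0.0077). *Mybl2*, another, was at 5, 5.61, 5.32, and 9.64 CPM in the DKO-moderate mice and at 26.6, 13.2, 21.4, and 32.4 CPM in the DKO-severe mice (log2 fold change 1.87, SE 0.30, adjusted p = 0.00402), and the groups did not overlap in either. In the list of E2F and G1 genes, 7 of 19 rose and 1 fell, against 9.41% and 10.7% of all genes. Without DKO-severe 1 and 2, 7 rose and 0 fell, against 7.9% and 5.62%. *E2f7* and *E2f8*, repressors that act late in S phase, had log2 fold changes of 1.86 and 1.85 (adjusted p = 0.00368 and 0.00692), *E2f2* of 1.32 (adjusted p = 0.00203), and the S-phase cyclin gene *Ccne2* of 1.57 (adjusted p = 0.00526). *Ccnd3*, a G1 cyclin gene, was the member that fell (log2 fold change -0.43, adjusted p = 0.0458), and -0.46 (adjusted p = 0.113) without DKO-severe 1 and 2. It also lost its call without WT 1, 2, or 4 or DKO-moderate 1, 3, or 4 or DKO-severe 1, 3, or 4 (adjusted p = 0.0555 to 0.138). *Cdkn1a*, which encodes the cell cycle inhibitor p21, was also higher in DKO-severe, at 3.24, 6.56, 5.24, and 5.09 CPM in the DKO-moderate mice and at 20.9, 18.4, 41.5, and 19.4 CPM in the DKO-severe mice (log2 fold change 2.32, SE 0.45, adjusted p = 0.00669), with no overlap and with 2.63 (adjusted p = 0.0113) without the pair.

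DNA replication genes rose less. Of 38, 19 passed, all higher, against 9.41% of all genes, with a median of 0.59. Without DKO-severe 1 and 2, 22 passed, against 7.9% of all genes, with a median of 0.76. *Uhrf1*, which carries maintenance DNA methylation through replication, was at 33.7, 36.9, 33.8, and 55.5 CPM in the DKO-moderate mice and at 115, 56.9, 82.4, and 114 CPM in the DKO-severe mice (log2 fold change 1.20, SE 0.22, adjusted p = 0.00564). *Rrm2*, a subunit of ribonucleotide reductase, was at 31.9, 36, 36.1, and 63.7 CPM in the DKO-moderate mice and at 123, 52.5, 104, and 165 CPM in the DKO-severe mice (log2 fold change 1.41, SE 0.31, adjusted p = 0.011), where DKO-severe 2 overlapped DKO-moderate 4. *Mcm6*, of the replicative helicase, was at 205, 269, 212, and 299.7 CPM in the DKO-moderate mice and at 474, 331, 428, and 458 CPM in the DKO-severe mice (log2 fold change 0.78, SE 0.14, adjusted p = 0.00554). The count of 19 depended on single libraries: it was 9 without DKO-moderate 1 or DKO-moderate 3, 12 without DKO-moderate 2, 31 without DKO-moderate 4, 11 without DKO-severe 1, 29 without DKO-severe 2, and 10 without DKO-severe 4.

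**Figure D2:**
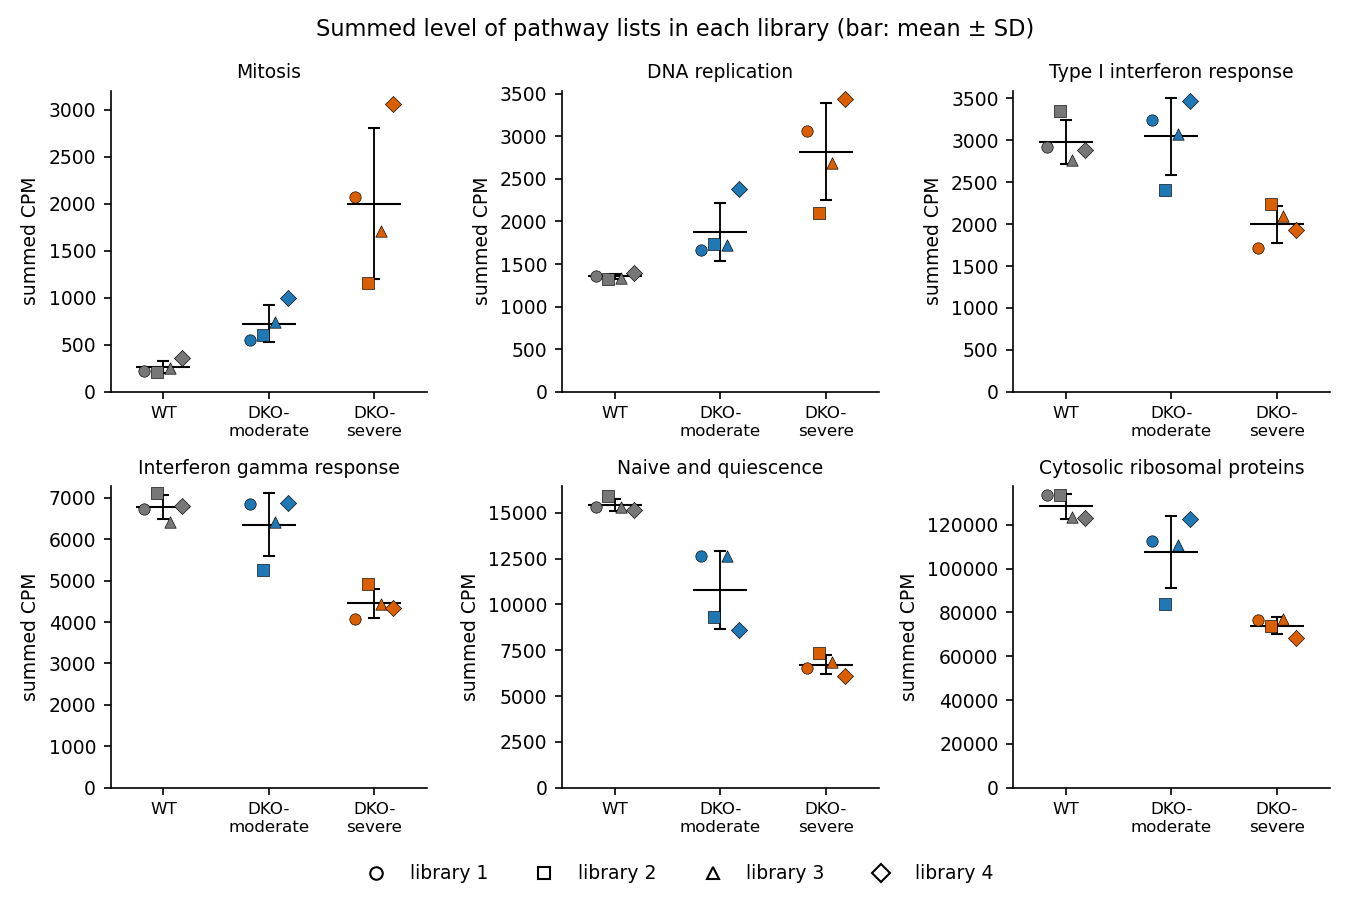
Summed CPM (y axis, from 0) of 6 gene lists in each library of the 3 groups (x axis), with the marker shape giving the library number and bars giving the group mean ± SD (n = 4). The mitosis sums of DKO-severe, at 1154 to 3064 CPM, lie above those of DKO-moderate, at 556 to 1000.4 CPM, and both interferon sums are lower in all 4 DKO-severe libraries than in any DKO-moderate library.

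Interferon response genes fell. In the type I list, 23 of 33 genes were lower in DKO-severe, against 10.7% of all genes, and none higher, with a median log2 fold change of -0.84. Without DKO-severe 1 and 2 the count was 14, against 5.62% of all genes, and the median -0.83. *Usp18*, which limits interferon signalling, was at 31.4, 15.6, 31.2, and 25.2 CPM in the DKO-moderate mice and at 2.82, 8.49, 8.59, and 7.75 CPM in the DKO-severe mice (log2 fold change -1.90, SE 0.35, adjusted p = 0.00554), and -1.62 (adjusted p = 0.013) without the pair. *Ifit1* was at 46.1, 25.1, 41.2, and 56 CPM in the DKO-moderate mice and at 6.88, 23.2, 18, and 13.8 CPM in the DKO-severe mice (log2 fold change -1.44, SE 0.36, adjusted p = 0.0182), with DKO-severe 2 just under DKO-moderate 2. *Irf7*, a transcription factor that amplifies the response, was at 96, 71.3, 85.6, and 121 CPM in the DKO-moderate mice and at 33.2, 60.2, 46.4, and 41.4 CPM in the DKO-severe mice (log2 fold change -1.05, SE 0.21, adjusted p = 0.00692), with no overlap. *Ifit3* and *Oas1a* fell with all libraries (log2 fold change -1.53 and -1.42, adjusted p = 0.0219 and 0.0205) but did not pass without DKO-severe 1 and 2, where they were -1.41 and -1.36 (adjusted p = 0.0611 and 0.0666). *Mx1*, another antiviral gene of the list, was at 25, 26, 19.4, and 32.7 CPM in the DKO-moderate mice and at 34.7, 30.4, 34.9, and 45.7 CPM in the DKO-severe mice and did not pass (log2 fold change 0.50, SE 0.26, adjusted p = 0.187). *Ifit1* lost its call without DKO-severe 4 (adjusted p = 0.0554), *Ifit3* without DKO-moderate 1 or 4 or DKO-severe 4 (adjusted p = 0.0514 to 0.0624), and *Oas1a* without DKO-severe 1 or 3 (adjusted p = 0.0549 to 0.0612). The type I count was 14 without DKO-moderate 1 or DKO-severe 4 and 15 without DKO-severe 3.

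In the interferon gamma list, 14 of 22 genes fell, against 10.7% of all genes, and 1 rose, with a median of -0.56. Without DKO-severe 1 and 2, 10 fell, against 5.62% of all genes, with a median of -0.57. *Iigp1*, an interferon-induced GTPase like *Igtp*, was at 81, 62.7, 78.8, and 153 CPM in the DKO-moderate mice and at 25.6, 55.5, 33.5, and 39.6 CPM in the DKO-severe mice (log2 fold change -1.28, SE 0.27, adjusted p = 0.00935). *Igtp* was at 225, 140.1, 213, and 214 CPM in the DKO-moderate mice and at 71.1, 113, 98.3, and 80.9 CPM in the DKO-severe mice (log2 fold change -1.12, SE 0.16, adjusted p = 0.00304), with no overlap. *Irf1*, the factor through which interferon gamma acts on many of its targets, was at 302, 214, 299, and 323 CPM in the DKO-moderate mice and at 152, 197, 176, and 176 CPM in the DKO-severe mice (log2 fold change -0.70, SE 0.12, adjusted p = 0.00501), also with no overlap. *B2m*, the light chain of MHC class I, was at 2515, 1805, 2268, and 2215 CPM in the DKO-moderate mice and at 1322, 1759, 1461, and 1406 CPM in the DKO-severe mice (log2 fold change -0.57, SE 0.12, adjusted p = 0.00864). *Gbp3* was the member that rose, at 37.2, 29.4, 36.1, and 37.5 CPM in the DKO-moderate mice and at 40.4, 48.9, 44.4, and 45.8 CPM in the DKO-severe mice (log2 fold change 0.36, SE 0.10, adjusted p = 0.0322), and 0.40 (adjusted p = 0.0522) without the pair. Its call was lost without DKO-moderate 1, 2, or 3 (adjusted p = 0.0572 to 0.0643). Summed over the list, DKO-moderate libraries were at 6861, 5257, 6413, and 6872 CPM and DKO-severe libraries at 4067, 4930.5, 4446, and 4351 CPM, against 6421 to 7119.6 CPM in WT. The receptor genes *Ifngr2* and *Ifnar2* were lower in DKO-severe as well (log2 fold change -0.91 and -0.50, adjusted p = 0.00729 and 0.00667), and both passed without DKO-severe 1 and 2 (adjusted p = 0.0184 and 0.0295). *Ifng* itself was at 34.8, 24.4, 16.8, and 17.9 CPM in the DKO-moderate mice and at 4.61, 21.5, 12.7, and 14.5 CPM in the DKO-severe mice and did not pass (log2 fold change -0.82, adjusted p = 0.146).

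Genes of naive and quiescent T cells fell. In this list 12 of 23 passed, all lower and again against 10.7% of all genes, with a median of -0.74. Without DKO-severe 1 and 2, 11 of them passed, against 5.62% of all genes, with a median of -0.74. *Ccr7*, the receptor that brings T cells into lymph nodes, was at 292, 207, 363, and 263 CPM in the DKO-moderate mice and at 117, 138, 141, and 127 CPM in the DKO-severe mice (log2 fold change -1.10, SE 0.14, adjusted p = 0.0022). *Lef1*, a transcription factor of naive T cells, was at 217, 119, 221, and 109 CPM in the DKO-moderate mice and at 48.1, 79.5, 66.4, and 51.5 CPM in the DKO-severe mice (log2 fold change -1.44, SE 0.24, adjusted p = 0.00416). *Btg1*, which slows proliferation, was at 1674, 1185, 1449, and 1074 CPM in the DKO-moderate mice and at 627, 726, 729, and 636 CPM in the DKO-severe mice (log2 fold change -0.99, SE 0.13, adjusted p = 0.0025). *Satb1*, a chromatin organizer, was at 479, 357, 603, and 362 CPM in the DKO-moderate mice and at 295, 236, 232, and 161 CPM in the DKO-severe mice (log2 fold change -0.96, SE 0.19, adjusted p = 0.00692). In all 4 the DKO-severe libraries lay below the DKO-moderate libraries, which in turn lay below WT, except that *Btg1* in DKO-moderate 1 was at 1674 CPM against 1655 to 2067 CPM in WT.

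Within the receptor complex and its proximal signalling, some members fell and none rose. Of 17 genes tested, 7 were lower, against 10.7% of all genes, with a median of -0.31. Without DKO-severe 1 and 2, 5 were lower, against 5.62% of all genes. *Lat*, the membrane adaptor onto which the signalling complex assembles (chromosome 7, 126363824 to 126369570, minus strand), was at 721, 498, 664, and 739 CPM in the DKO-moderate mice and at 234, 336, 274, and 294 CPM in the DKO-severe mice (log2 fold change -1.20, SE 0.15, adjusted p = 0.00203), and -1.17 (adjusted p = 0.0037) without the pair. The DKO-severe libraries were well separated from the DKO-moderate libraries, and WT was at 684 to 880.1 CPM. *Cd247*, the zeta chain, was at 388, 279.5, 389, and 342 CPM in the DKO-moderate mice and at 143, 232, 186, and 223 CPM in the DKO-severe mice (log2 fold change -0.83, SE 0.15, adjusted p = 0.00523). *Plcg1*, *Cd2*, and *Lck* had log2 fold changes of -0.70, -0.54, and -0.42 (adjusted p = 0.00625, 0.00414, and 0.0137). Without DKO-severe 1 and 2, *Lck* did not pass (log2 fold change -0.29, adjusted p = 0.126). *Cd5*, of the same list, passed with all libraries and not without the pair (log2 fold change -0.63 and -0.51, adjusted p = 0.0434 and 0.221), nor without WT 1, 2, or 4 or DKO-moderate 1 or 3 or DKO-severe 1, 2, or 4 (adjusted p = 0.0519 to 0.135). *Zap70*, the kinase recruited to the zeta chain, was at 406, 614, 469, and 610.3 CPM in the DKO-moderate mice and at 627, 573, 639, and 643 CPM in the DKO-severe mice and did not pass (adjusted p = 0.173).

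Genes induced within minutes of receptor engagement were mixed. In the early response list, 2 rose and 6 fell of 17, against 9.41% and 10.7% of all genes. With DKO-severe 3 and 4 only, 1 rose and 2 fell, near the 7.9% and 5.62% of all genes. *Irf4*, whose level rises with the strength of receptor signalling, was at 89.3, 138, 98.9, and 172 CPM in the DKO-moderate mice and at 317, 199.7, 279, and 339 CPM in the DKO-severe mice (log2 fold change 1.19, SE 0.24, adjusted p = 0.00722), with 1.35 (adjusted p = 0.0112) without the pair. *Nr4a2*, an orphan nuclear receptor gene, was at 10.4, 13.1, 6.09, and 6.54 CPM in the DKO-moderate mice and at 17.6, 34.8, 18.4, and 13 CPM in the DKO-severe mice (log2 fold change 1.21, SE 0.36, adjusted p = 0.0331), with 0.84 (adjusted p = 0.174) without the pair and no call without DKO-moderate 1, 3, or 4 or DKO-severe 1, 2, or 3 (adjusted p = 0.0523 to 0.093). *Jun*, of the AP-1 family, was at 234, 178, 242, and 85.9 CPM in the DKO-moderate mice and at 17.1, 46.8, 80.8, and 44 CPM in the DKO-severe mice (log2 fold change -1.97, SE 0.41, adjusted p = 0.0081), with no overlap and -1.53 (adjusted p = 0.0294) without the pair. *Fos* was at 296, 398, 362, and 181 CPM in the DKO-moderate mice and at 64.3, 75.8, 223, and 178 CPM in the DKO-severe mice (log2 fold change -1.19, SE 0.38, adjusted p = 0.0463). *Junb* was at 1448, 1401, 921, and 639.8 CPM in the DKO-moderate mice and at 443, 413, 729.8, and 547 CPM in the DKO-severe mice (log2 fold change -1.05, SE 0.28, adjusted p = 0.0224). Both were lowest in DKO-severe 1 and 2, and neither passed without them, with log2 fold changes of -0.59 and -0.75 (adjusted p = 0.245 and 0.178). *Fos* also lost its call without WT 1, 2, 3, or 4 or DKO-moderate 1, 2, or 3 or DKO-severe 1, 2, or 4 (adjusted p = 0.0504 to 0.106), and *Junb* without DKO-moderate 1 or DKO-severe 1, 2, or 4 (adjusted p = 0.054 to 0.0705). *Dusp1*, a phosphatase of the same immediate-early set, behaved alike, at 224, 247, 162, and 80 CPM in the DKO-moderate mice and at 41.3, 36.5, 97.4, and 65.5 CPM in the DKO-severe mice (log2 fold change -1.56, SE 0.38, adjusted p = 0.0152), and -1.09 (adjusted p = 0.114) without the pair. The NF-kappaB list was mixed as well, with 4 of 15 higher and 1 lower, against 9.41% and 10.7% of all genes, and a median of 0.053. Without the pair, 3 were higher and 0 lower, against 7.9% and 5.62%. *Nfkb1*, *Nfkb2*, and *Nfkbie* rose with all libraries (log2 fold change 0.87, 0.63, and 0.56) and without DKO-severe 1 and 2 (log2 fold change 1.07, 0.73, and 0.73, adjusted p = 0.000717, 0.0116, and 0.00139). *Bcl3* rose and *Nfkbid* fell with all libraries only (log2 fold change 0.63 and -0.61, adjusted p = 0.0272 and 0.0209, and 0.103 and 0.0626 without the pair). *Bcl3* also lost its call without DKO-moderate 1 or 3 or DKO-severe 1 (adjusted p = 0.0786 to 0.0808), and *Nfkbid* without DKO-moderate 1 or DKO-severe 1, 3, or 4 (adjusted p = 0.0518 to 0.0731).

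TGF-beta pathway genes were mixed. Of 18, 6 fell, against 10.7% of all genes, and 1 rose, against 9.41%, with a median of -0.11. Without DKO-severe 1 and 2, 3 fell and 2 rose, against 5.62% and 7.9% of all genes. *Smad7*, the inhibitory SMAD, was at 162, 96.5, 152, and 76 CPM in the DKO-moderate mice and at 41.2, 49, 52.3, and 50.6 CPM in the DKO-severe mice (log2 fold change -1.33, SE 0.22, adjusted p = 0.00415), with no overlap and -1.20 (adjusted p = 0.0237) without the pair. *Tgfbr3*, a coreceptor, was at 98.7, 73.9, 77.8, and 59.9 CPM in the DKO-moderate mice and at 40.7, 31.6, 22.7, and 41 CPM in the DKO-severe mice (log2 fold change -1.19, SE 0.21, adjusted p = 0.00526), and -1.25 (adjusted p = 0.0181) without the pair. *Tgfbr2*, the ligand-binding receptor, was at 439, 252, 528, and 295 CPM in the DKO-moderate mice and at 161, 228, 223, and 201 CPM in the DKO-severe mice (log2 fold change -0.90, SE 0.21, adjusted p = 0.0124), and -0.80 (adjusted p = 0.0669) without the pair. *Ltbp3*, which encodes a binding protein of latent TGF-beta, did not pass with all libraries (log2 fold change 1.88, SE 0.63, adjusted p = 0.0534). It passed as higher without the pair, with 2.46 (adjusted p = 0.0341). The member that rose with all libraries is not reported here.

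Genes for ribosomal proteins were lower as a block. Of 79 tested, 71 fell, against 10.7% of all genes, and none rose, with a median of -0.55. Without DKO-severe 1 and 2, 41 fell, against 5.62% of all genes, with nearly the same median, -0.54. Ribosomal protein genes have many processed pseudogenes, and reads that matched more than 1 place were not counted, so that each of these levels is uncertain. They took 8.84% to 12.5% of the reads on genes in DKO-moderate and 7.35% to 8.16% in DKO-severe, against 11.7% to 12.6% in WT. The highest DKO-severe library was below the lowest DKO-moderate library, DKO-moderate 2. With library size alone as scaling, the median was -0.44 and 63 genes fell. Subunits of the respiratory chain (2 of 77 lower, median -0.11) and of the proteasome (1 of 37 lower, median -0.027) had few calls, against 10.7% of all genes. Without DKO-severe 1 and 2, 1 and 0 were lower, against 5.62% of all genes. The genes called were *Cox7a2l* and *Ndufa6* (log2 fold change -0.52 and -0.37, adjusted p = 0.00737 and 0.0188) and *Psmb10* (log2 fold change -0.41, adjusted p = 0.0268), an immunoproteasome subunit that also stands in the interferon gamma list. *Ndufa6* and *Psmb10* did not pass without DKO-severe 1 and 2 (adjusted p = 0.0698 and 0.177). With single libraries left out, *Ndufa6* lost its call without DKO-moderate 3 or DKO-severe 4 (adjusted p = 0.0501 to 0.0704), and *Psmb10* without DKO-severe 1, 2, 3, or 4 (adjusted p = 0.0637 to 0.0733). In glycolysis, 3 of 18 rose, where 9.41% of all genes did, with a median of 0.18. Without DKO-severe 1 and 2, 4 rose, where 7.9% of all genes did. *Hk2*, which commits glucose to the pathway, was at 6.17, 9.02, 6.91, and 11.9 CPM in the DKO-moderate mice and at 27.1, 16.6, 19.3, and 21.3 CPM in the DKO-severe mice (log2 fold change 1.31, SE 0.28, adjusted p = 0.00881). *Tpi1* was at 84.2, 191, 109.8, and 202 CPM in the DKO-moderate mice and at 410.0, 191, 315, and 374 CPM in the DKO-severe mice (log2 fold change 1.13, SE 0.28, adjusted p = 0.0161), with an overlap of DKO-severe 2 with DKO-moderate 2 and 4. The other gene was *Pkm2* (log2 fold change 0.53, adjusted p = 0.0141). All 3 passed without DKO-severe 1 and 2 (adjusted p = 0.0278, 0.0191, and 0.00778), and *Tpi1* lost its call without DKO-moderate 3 (adjusted p = 0.0508).

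Helper programmes separated the groups less evenly. In the list for Th17 cells, 7 of 13 genes rose, against 9.41% of all genes, with a median of 1.49. Without DKO-severe 1 and 2, 8 rose, against 7.9% of all genes. *Il23r*, the receptor for the cytokine that sustains Th17 cells, was at 2.29, 0.567, 0.919, and 1.67 CPM in the DKO-moderate mice and at 15.9, 2.19, 29.3, and 17.7 CPM in the DKO-severe mice (log2 fold change 3.58, SE 0.70, adjusted p = 0.00687), where DKO-severe 2 overlapped DKO-moderate 1. *Tmem176a*, a membrane protein gene, was at 13.6, 14.5, 10.5, and 23 CPM in the DKO-moderate mice and at 78.1, 25.8, 50.3, and 57.5 CPM in the DKO-severe mice (log2 fold change 1.78, SE 0.31, adjusted p = 0.00473). Its neighbour *Tmem176b* was at 18.1, 18.8, 14.5, and 31.1 CPM in the DKO-moderate mice and at 84.3, 39.6, 53.6, and 54.2 CPM in the DKO-severe mice (log2 fold change 1.49, SE 0.28, adjusted p = 0.00575), and neither gene had overlapping groups. In the list for Tfh cells, 7 of 20 rose, against the same 9.41%, with a median of 0.72, and 5 without the pair, against 7.9%. *Pou2af1*, a coactivator that is also abundant in B cells, was at 46.4, 123, 60.8, and 71 CPM in the DKO-moderate mice and at 234, 191, 213, and 197 CPM in the DKO-severe mice (log2 fold change 1.47, SE 0.31, adjusted p = 0.00928), all 4 DKO-severe libraries being well above the others. *Cd200* and *Tox* had log2 fold changes of 0.75 and 0.70 (adjusted p = 0.0134 and 0.0194), and 0.85 and 0.83 without the pair (adjusted p = 0.0325 and 0.034), and *Tox* lost its call without DKO-moderate 1 or 3 (adjusted p = 0.0553 to 0.0615). The Tfh count was 3 without DKO-moderate 1, 2 without DKO-moderate 3, and 4 without DKO-severe 1 or DKO-severe 4. Of the 9 Th2 genes, 2 rose with a list median of -0.052, and 2 without the pair, where the median was -0.42. Counts this small say little beside the 9.41% and 7.9% of all genes. These were *Ccr4* and *Ccr8*, chemokine receptors of Th2 and skin-homing cells, which rose by 1.22 and 1.44 on the log2 scale (adjusted p = 0.00331 and 0.00692), and both passed without the pair (adjusted p = 0.00233 and 0.0171).

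None of the 12 Th1 genes passed, and 1 of the 13 cytotoxic genes did, as higher, near the 9.41% of all genes. In these lists DKO-severe 2 stood apart from the rest of its group. *Eomes*, a T-box factor, was at 39.2, 26.4, 29.3, and 26.5 CPM in the DKO-moderate mice and at 5.03, 99.4, 22.2, and 24.8 CPM in the DKO-severe mice (adjusted p = 0.739). *Nkg7*, a cytotoxic granule protein, was at 169.5, 108, 86, and 114 CPM in the DKO-moderate mice and at 88.1, 277, 74.4, and 86.2 CPM in the DKO-severe mice (adjusted p = 0.834). *Ccl5*, a chemokine of cytotoxic and memory cells, was at 119, 157, 90.6, and 131 CPM in the DKO-moderate mice and at 65.5, 332, 96.1, and 69.4 CPM in the DKO-severe mice (adjusted p = 0.84). In all 3 genes the other DKO-severe libraries lay below all but at most 1 of the DKO-moderate libraries. *Gzmb*, which encodes granzyme B, passed with all libraries, at 12, 36.2, 6.21, and 21.3 CPM in the DKO-moderate mice and at 36.6, 129, 97.8, and 25 CPM in the DKO-severe mice (log2 fold change 1.93, SE 0.59, adjusted p = 0.039), and not without DKO-severe 1 and 2, at 1.73 (adjusted p = 0.108), nor without WT 4 or DKO-moderate 1, 3, or 4 or DKO-severe 2 or 3 (adjusted p = 0.0513 to 0.107). Among the coinhibitory receptors 3 of 11 rose with all libraries, against 9.41% of all genes, and 0 without the pair, against 7.9%. These were *Lag3*, at 186, 458, 205, and 344 CPM in the DKO-moderate mice and at 953, 513, 801, and 920.4 CPM in the DKO-severe mice (log2 fold change 1.42, SE 0.46, adjusted p = 0.0464), *Tigit* (log2 fold change 1.34, adjusted p = 0.0382), and *Btla* (log2 fold change 0.50, adjusted p = 0.017). Their log2 fold changes without DKO-severe 1 and 2 were 1.56, 1.19, and 0.48, so that *Lag3* lost its call with a larger fold change and fewer libraries (adjusted p = 0.0854, 0.154, and 0.0791). With single libraries left out, *Lag3* lost its call without WT 2 or 3 or DKO-moderate 1, 3, or 4 or DKO-severe 1, 3, or 4 (adjusted p = 0.053 to 0.124), *Tigit* without DKO-moderate 1, 3, or 4 or DKO-severe 1, 2, 3, or 4 (adjusted p = 0.0564 to 0.106), and *Btla* without DKO-moderate 3 (adjusted p = 0.0527). *Il2ra*, the high-affinity IL-2 receptor chain that both regulatory and activated T cells carry, was at 40.6, 27.3, 31.6, and 43.1 CPM in the DKO-moderate mice and at 123, 96, 91.5, and 78.1 CPM in the DKO-severe mice (log2 fold change 1.44, SE 0.24, adjusted p = 0.00422), and 1.29 (adjusted p = 0.0154) without the pair.

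The genes with the largest fold changes that held without DKO-severe 1 and 2, had separate groups, and reached a mean of 5 CPM in a group were 638 higher and 602 lower, of which the 12 largest in each direction are named. Among the lower ones were *Xlr3b*, *Arhgap29*, *Adh1*, *A530021J07Rik*, *Slc16a5*, *Amigo2*, *Ampd1*, *Tmie*, *2210010C17Rik*, *Gpr83*, *Gprc5b*, and *Als2cl*, with log2 fold changes from -3.09 to -2.18. *Als2cl*, the most abundant of these, was at 299.98, 150.04, 356, and 151 CPM in the DKO-moderate mice and at 14.3, 74.4, 61.9, and 61.1 CPM in the DKO-severe mice and at 484 to 698 CPM in WT (log2 fold change -2.18, SE 0.44, adjusted p = 0.00734). *Gprc5b*, an orphan receptor gene, was at 9.28, 8.35, 12.2, and 7.47 CPM in the DKO-moderate mice and at 1.01, 3.01, 1.88, and 2.2 CPM in the DKO-severe mice (log2 fold change -2.20, SE 0.28, adjusted p = 0.00203). *Gpr83*, a receptor gene linked with regulatory T cells, was at 6.3, 11.1, 5.34, and 22.4 CPM in the DKO-moderate mice and at 4.35, 2.04, 1.83, and 1.53 CPM in the DKO-severe mice (log2 fold change -2.21, SE 0.45, adjusted p = 0.00808). *Amigo2*, an adhesion molecule gene, was at 33.9, 22.8, 39.2, and 21.6 CPM in the DKO-moderate mice and at 1.53, 8.4, 5.07, and 8.33 CPM in the DKO-severe mice (log2 fold change -2.33, SE 0.40, adjusted p = 0.00473). In all but *Gpr83*, the DKO-moderate mean lay between WT and DKO-severe.

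The 12 largest rises by the same rule were *Ltf*, *Itgb2l*, *Camp*, *Pmp22*, *Anxa8*, *Blk*, *Dact2*, *Trp73*, *Gm17384*, *Msc*, *Mmp10*, and *Thbs2*. They fell into sets that differed in which libraries were high. *Ltf* and *Camp* are neutrophil granule genes and *Itgb2l* is an integrin gene of neutrophils outside the list, and all 3 were highest in DKO-severe 1 and 2, as the values below show. The other 9 were highest in DKO-severe 3 or 4, except *Gm17384*, at 13.8, 0.731, 4.78, and 3.61 CPM in DKO-severe. *Mmp10*, a matrix metalloproteinase gene, was at 2.45, 1.67, 2.09, and 3.58 CPM in the DKO-moderate mice and at 83.3, 24.5, 163, and 139 CPM in the DKO-severe mice (log2 fold change 5.38, SE 0.53, adjusted p = 0.00121), and 5.98 (adjusted p = 5.76e-06) without the pair. *Msc*, a transcription factor gene of the basic helix-loop-helix family, was at 1.75, 0.504, 0.522, and 2.46 CPM in the DKO-moderate mice and at 81.5, 3.44, 57.3, and 163 CPM in the DKO-severe mice (log2 fold change 5.85, SE 0.95, adjusted p = 0.00402), with DKO-severe 2 close to DKO-moderate. *Trp73*, a p53 family member, was at 0, 0.126, 0.0745, and 0.212 CPM in the DKO-moderate mice and at 8.24, 3.47, 6.24, and 10.5 CPM in the DKO-severe mice (log2 fold change 6.07, SE 0.77, adjusted p = 0.00203). *Dact2*, an inhibitor of Wnt and TGF-beta signalling, was at 0.0797, 0.189, 0.0745, and 0.318 CPM in the DKO-moderate mice and at 12, 1.95, 12.3, and 21 CPM in the DKO-severe mice (log2 fold change 6.14, SE 0.76, adjusted p = 0.00203). *Thbs2*, a secreted matrix glycoprotein gene, was at 0.425, 0.694, 0.894, and 0.053 CPM in the DKO-moderate mice and at 4.58, 3.29, 45.8, and 29.7 CPM in the DKO-severe mice (log2 fold change 5.33, SE 1.06, adjusted p = 0.0106). *Pmp22*, a membrane protein gene best known from Schwann cells, was at 0, 0.0315, 0.149, and 0 CPM in the DKO-moderate mice and at 2.11, 0.944, 14.9, and 10.3 CPM in the DKO-severe mice (log2 fold change 7.14, SE 1.30, adjusted p = 0.00548). For *Pmp22* and *Thbs2*, DKO-severe 3 and 4 carried most of the rise, the reverse of the neutrophil genes.

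*Blk*, a SRC family kinase gene of B cells and some T cells (chromosome 14, 63372836 to 63417037, minus strand), was listed as a B cell marker and did not follow the rest of that list. It was at 0.186, 0.788, 0.447, and 0.954 CPM in the DKO-moderate mice and at 30.3, 17.7, 34.1, and 117 CPM in the DKO-severe mice (log2 fold change 6.39, SE 1.57, adjusted p = 0.0161), highest in DKO-severe 4, where *Ms4a1*, a B cell surface gene, was at 0.0718 CPM. Its call was lost without DKO-moderate 1 or 3 (adjusted p = 0.0508 to 0.0523). *Pax5*, the B cell commitment factor, was at 0.213, 1.54, 1.39, and 0.371 CPM in the DKO-moderate mice and at 10, 10.9, 13, and 15.7 CPM in the DKO-severe mice, higher in all 4 DKO-severe libraries than in any DKO-moderate library, without passing the threshold (log2 fold change 3.82, SE 1.39, adjusted p = 0.0715), though it passed without WT 3 (adjusted p = 0.00624). *Zbtb46*, listed for dendritic cells, was at 1.09, 1.58, 0.522, and 1.3 CPM in the DKO-moderate mice and at 11.8, 1.67, 9.35, and 12.5 CPM in the DKO-severe mice (log2 fold change 2.98, SE 0.55, adjusted p = 0.00567) and was lowest in DKO-severe 2. *Itgam*, *Il1r2*, and *Cd5l* likewise stand in the myeloid lists and were raised in DKO-severe 3 and 4. *Itgam*, the integrin chain CD11b, was at 5.18, 11.5, 5.34, and 5.11 CPM in the DKO-moderate mice and at 135, 59.2, 86.2, and 30.5 CPM in the DKO-severe mice (log2 fold change 3.52, SE 0.50, adjusted p = 0.00288), with 3.14 (adjusted p = 0.0053) without DKO-severe 1 and 2. *Il1r2*, a decoy receptor for IL-1, was at 8.69, 24.4, 12.5, and 16.7 CPM in the DKO-moderate mice and at 94.8, 32.2, 90.2, and 156 CPM in the DKO-severe mice (log2 fold change 2.58, SE 0.45, adjusted p = 0.00485), highest in DKO-severe 4. *Cd5l*, secreted by macrophages, was at 2.68, 6.65, 1.47, and 4.82 CPM in the DKO-moderate mice and at 16.6, 20.4, 36.9, and 32.6 CPM in the DKO-severe mice (log2 fold change 2.77, SE 0.79, adjusted p = 0.0292), highest in DKO-severe 3, and it lost its call without DKO-moderate 1 or 3 or DKO-severe 3 or 4 (adjusted p = 0.0625 to 0.0841). The lists alone therefore do not say in which library a gene was raised.

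Neutrophil granule genes had among the largest fold changes of the comparison, and most of their reads came from DKO-severe 1 and 2. Of the 25 genes of the list, 18 passed with all libraries, all higher, against 9.41% of all genes, with a median log2 fold change of 5.99. Without DKO-severe 1 and 2, 5 of the 23 that could be tested passed, against 7.9% of all genes, with a median of 1.43. *Ngp* (chromosome 9, 110419747 to 110423012, plus strand), an abundant granule protein of developing neutrophils, was at 0, 0.662, 0, and 0.053 CPM in the DKO-moderate mice and at 536, 182, 5.76, and 2.18 CPM in the DKO-severe mice (log2 fold change 10.12, SE 1.92, adjusted p = 0.00613). DKO-severe 1 and 2 exceeded DKO-severe 3 and 4 by more than an order of magnitude. *Ltf*, which encodes lactoferrin, was at 0, 0.189, 0, and 0 CPM in the DKO-moderate mice and at 403, 152, 4.24, and 1.56 CPM in the DKO-severe mice (log2 fold change 11.62, SE 2.10, adjusted p = 0.00539). *Camp*, the cathelicidin gene, was at 0, 0.158, 0, and 0 CPM in the DKO-moderate mice and at 119, 43.9, 1.38, and 0.67 CPM in the DKO-severe mice (log2 fold change 10.08, SE 1.89, adjusted p = 0.00584). The same pair of libraries was high in *S100a9*, a calcium-binding protein gene of neutrophils and monocytes, at 0.0266, 1.26, 0, and 0.106 CPM in the DKO-moderate mice and at 493, 188, 5.43, and 1.8 CPM in the DKO-severe mice (log2 fold change 9.07, SE 1.83, adjusted p = 0.00751). Fold changes of this size rest on DKO-moderate levels near 0 and on the prior count of the fit. *Ngp*, *Lcn2*, *S100a8*, and *S100a9* lost their calls without DKO-severe 1 and 2, with adjusted p = 0.0752, 0.0713, 0.188, and 0.159, while *Ltf* and *Camp* passed with log2 fold changes of 5.997 and 4.74 (adjusted p = 0.0227 and 0.0367). Residual levels in DKO-severe 3 and 4, 4.24 and 1.56 CPM of *Ltf* against at most 0.189 CPM in DKO-moderate, were thus enough for a call in these genes. *Itgb2l*, *Cebpe*, and *Fcnb* had no read in any DKO-moderate library. Against 3 reads over the 4 DKO-moderate libraries they were at least 271-fold, 81.7-fold, and 137-fold higher over the 4 DKO-severe libraries, bounds for counting error alone, and DKO-severe 3 and 4 held 15, 13, and 16 of their 752, 227, and 379 reads. The 5 genes that passed without DKO-severe 1 and 2 were *Ltf*, *Camp*, *Cebpe*, *Fcnb*, and *Il1r2*, named after their values were seen. The count of 18 was 11 without DKO-moderate 1, 10 with the replicate numbers as a block, and 7 with limma voom.

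Genes of early neutrophil precursors gave another pattern. *Elane*, which encodes the elastase of the primary granules, was at 0, 0.441, 0, and 1.46 CPM in the DKO-moderate mice and at 2.53, 2.1, 0.167, and 0.168 CPM in the DKO-severe mice (adjusted p = 0.514). *Mpo*, which encodes myeloperoxidase, was at 0.133, 2.58, 0.298, and 6.28 CPM in the DKO-moderate mice and at 4.41, 2.98, 0.69, and 0.67 CPM in the DKO-severe mice (adjusted p = 0.956). DKO-moderate 4 held more *Mpo* than any DKO-severe library, and DKO-moderate 2 more than DKO-severe 3 and 4, while the later granule genes above were nearly absent from them.

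**Figure D3:**
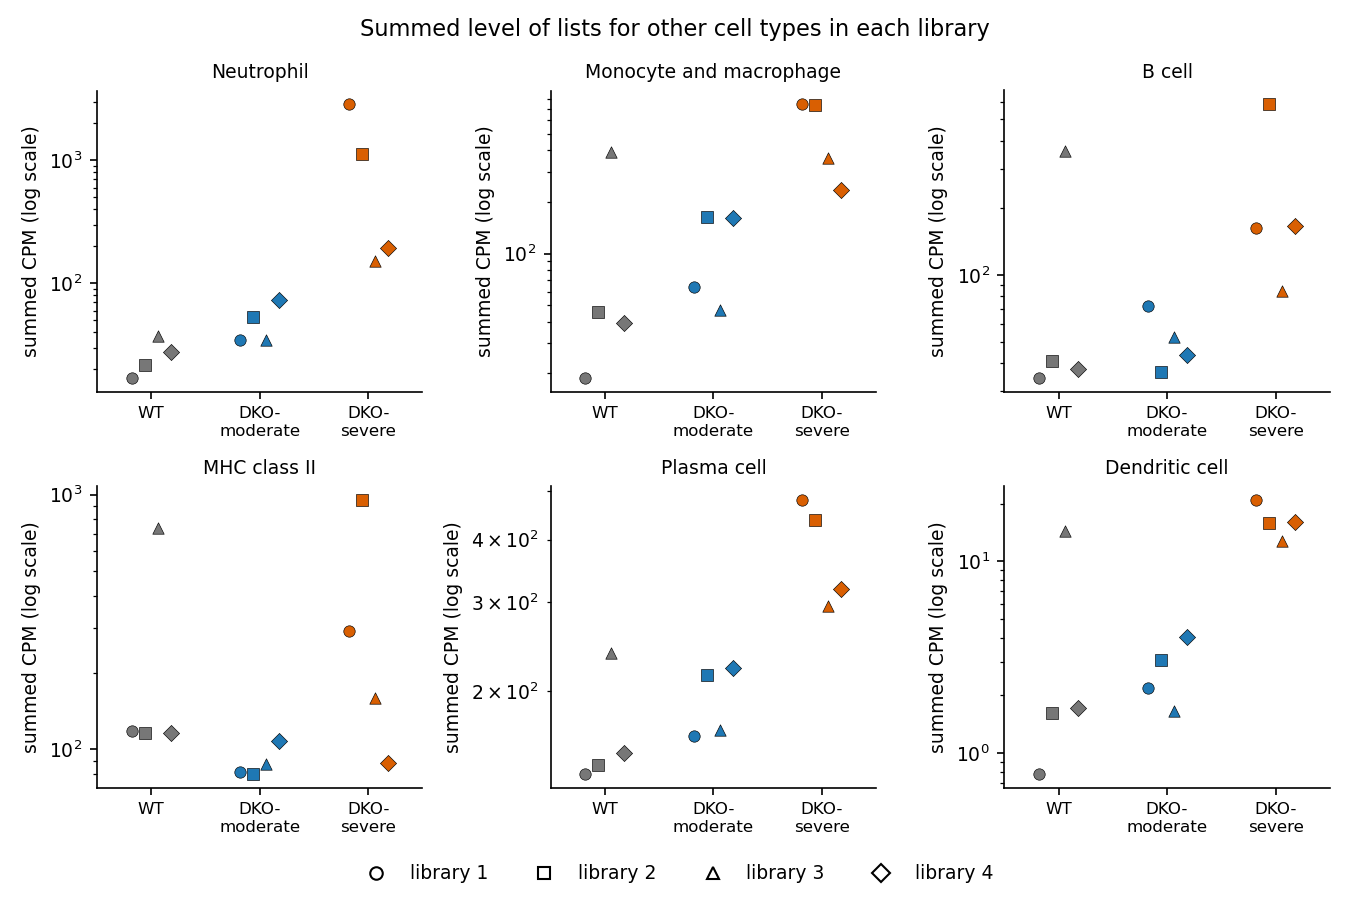
Summed CPM (y axis, log scale) of 6 lists for other cell types in each library of the 3 groups (x axis), with the marker shape giving the library number. DKO-severe 1 and 2 are highest in the neutrophil list, at 2870.1 and 1119.8 CPM, DKO-severe 2 is highest in the B cell list, at 584.9 CPM, and WT 3 also lies far above the rest of its group in the B cell, MHC class II, and monocyte lists.

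Whatever their list, genes called with all libraries and not without DKO-severe 1 and 2 numbered 256 higher and 768 lower among those with a mean of 5 CPM in a group. The 12 largest rises were *Rag1*, *Ngp*, *Lcn2*, *Retnlg*, *S100a9*, *S100a8*, *Ifitm6*, *Lrg1*, *Chi3l3*, *Mmp8*, *Lhx3*, and *Gda*. 8 of the 12 are on the neutrophil list. *Rag1*, which cuts DNA during antigen receptor rearrangement, was at 0 CPM in every DKO-moderate library and at 9.73, 17.6, 0.0476, and 0 CPM in DKO-severe, with 879 of its 881 DKO-severe reads in DKO-severe 1 and 2 and none in DKO-moderate, at least 317-fold higher. It was highest in DKO-severe 2. *Lhx3*, a homeobox gene, was at 0, 0.347, 0.0497, and 0 CPM in the DKO-moderate mice and at 19.8, 0.396, 0.119, and 0.838 CPM in the DKO-severe mice (log2 fold change 5.76, SE 1.69, adjusted p = 0.0321), highest in DKO-severe 1. *Gda*, guanine deaminase, was at 0.319, 1.13, 0.224, and 1.03 CPM in the DKO-moderate mice and at 58.6, 20.7, 25.4, and 14.5 CPM in the DKO-severe mice (log2 fold change 5.47, SE 1.34, adjusted p = 0.0158), and at 25.4 and 14.5 CPM in DKO-severe 3 and 4 it remained above DKO-moderate, with 4.92 (adjusted p = 0.0597) without the pair. Among the 12, calls were lost by *Rag1* without DKO-moderate 1 or 3 or DKO-severe 1 (adjusted p = 0.0515 to 0.0604), by *Lhx3* without DKO-moderate 1, 3, or 4 or DKO-severe 1 (adjusted p = 0.0615 to 0.231), by *Chi3l3* without DKO-moderate 1 or 3 or DKO-severe 1 (adjusted p = 0.0836 to 0.102), by *Mmp8* without DKO-moderate 1 or 3 or DKO-severe 1 (adjusted p = 0.071 to 0.0788), by *Ifitm6* without DKO-moderate 1 (adjusted p = 0.0505), and by *Gda* without DKO-moderate 1 or 3 (adjusted p = 0.05 to 0.0516). The 6 largest falls were *Dnajb4*, *Dusp1*, *Ifit3*, *I830012O16Rik*, *Oas1a*, and *Qser1*, with log2 fold changes from -1.88 to -1.40 with all libraries and from -1.73 to -1.09 without DKO-severe 1 and 2. Of these, 3 are interferon response genes. *I830012O16Rik* lost its call without DKO-moderate 1, 3, or 4 or DKO-severe 1, 3, or 4 (adjusted p = 0.0591 to 0.095), and *Qser1* without WT 1, 2, 3, or 4 or DKO-moderate 1 or 3 or DKO-severe 1, 3, or 4 (adjusted p = 0.0514 to 0.131).

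Monocyte and macrophage genes had higher sums in all DKO-severe libraries, and the number of calls turned on WT 3, a library with such transcripts of its own. Of 25, 3 passed, all higher and near the 9.41% of all genes, with a median of 1.72. Without DKO-severe 1 and 2, 2 passed, near the 7.9% of all genes, with a median of 1.21. The 3 were *Itgam*, *Cd5l*, and the Fc receptor gene *Fcgr3*, at 1.36, 2.46, 0.77, and 1.56 CPM in the DKO-moderate mice and at 13.3, 10.2, 3.28, and 2.25 CPM in the DKO-severe mice (log2 fold change 2.24, SE 0.69, adjusted p = 0.0392), the last with 0.89 (adjusted p = 0.428) without the pair and without a call without DKO-moderate 1, 3, or 4 or DKO-severe 1 or 2 (adjusted p = 0.0659 to 0.112). The list summed to 63.8, 164, 46.7, and 162 CPM in DKO-moderate and 742, 734, 361, and 235 CPM in DKO-severe. *Lyz2*, the lysozyme gene of myeloid cells, was at 2.26, 18.7, 1.24, and 17.6 CPM in the DKO-moderate mice and at 285, 261, 21.1, and 24 CPM in the DKO-severe mice, with DKO-severe 3 and 4 close to DKO-moderate 2 and 4 (log2 fold change 3.90, adjusted p = 0.119). Without DKO-severe 1 and 2 it was 1.21 (adjusted p = 0.705). *C1qa*, a complement gene of tissue macrophages, was at 2.26, 6.34, 1.29, and 6.99 CPM in the DKO-moderate mice and at 8.7, 13.8, 10.8, and 5.39 CPM in the DKO-severe mice, where the groups overlapped (adjusted p = 0.333). WT 3 was at 102 CPM of *Lyz2* against at most 0.936 CPM in the other WT libraries, so that such transcripts were not limited to DKO mice, and the spread estimated over all groups included it. Without WT 3, 15 genes of the list passed, *Lyz2* among them (adjusted p = 0.0267), where 1671 of all 15959 genes were higher. With the 8 DKO libraries alone 9 did, where 1230 of all 15852 genes were higher. The count was 1 without DKO-moderate 1 or 3, and 2 without DKO-moderate 4 or without DKO-severe 1, 2, or 4.

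B cell genes summed to 72.2, 36.6, 52.6, and 43.6 CPM in DKO-moderate and 162, 585, 85, and 166 CPM in DKO-severe, highest in DKO-severe 2. *Blk* alone gave most of the sum in DKO-severe 4. In the DKO-moderate libraries, where *Ms4a1* was near 0, *Cd72* gave 22, 11.1, 17.5, and 18.6 CPM of the sums. *Ms4a1*, which encodes CD20, was at 0, 0.126, 0.0745, and 0.0265 CPM in the DKO-moderate mice and at 7.72, 65.1, 0.167, and 0.0718 CPM in the DKO-severe mice (log2 fold change 8.29, SE 2.96, adjusted p = 0.0667). DKO-severe 3 and 4 lay at the level of DKO-moderate, and without DKO-severe 1 and 2 the log2 fold change was 1.11 (adjusted p = 0.857). Over the 17 genes tested, the median was 5.25 with all libraries and 0.75 without the pair, and *Blk* was the gene called higher, in both cases, while *Cd72* was lower without the pair (-1.05, adjusted p = 0.0317). The MHC class II list followed. *H2-Aa*, which encodes the alpha chain of I-A, was at 1.78, 5.67, 1.54, and 3.31 CPM in the DKO-moderate mice and at 54.4, 179, 27.6, and 9.53 CPM in the DKO-severe mice (adjusted p = 0.0636). *Cd74*, the invariant chain gene, was at 8.53, 17.9, 7.05, and 26.1 CPM in the DKO-moderate mice and at 95.9, 319, 46.4, and 20.6 CPM in the DKO-severe mice (adjusted p = 0.111). No gene of this list passed with all libraries, and without DKO-severe 1 and 2 *H2-DMa* and *H2-Ob* were lower in DKO-severe (log2 fold change -0.70 and -1.65, adjusted p = 0.0273 and 0.0144). *H2-Ob* was at 29.6, 11.9, 29.5, and 20.5 CPM in the DKO-moderate mice and at 6.75, 51.6, 6.02, and 8.14 CPM in the DKO-severe mice, so that the high value in DKO-severe 2 stood against low values in the other 3. The calls in both lists depended on WT 3. Without it, 13 of the 17 B cell genes and 6 of the 10 MHC class II genes passed as higher in DKO-severe, among them *Ms4a1* (adjusted p = 0.018), *H2-Aa* (adjusted p = 0.00763), and *Cd74* (adjusted p = 0.0188), at fold changes that hardly moved. Over all genes, 1671 of 15959 were higher in that fit. With the 8 DKO libraries alone the counts were 8 and 5, where 1230 of all 15852 genes were higher. With DESeq2 on all 12 they were 10 and 5, where 2487 of all 16035 genes were higher.

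Plasma cell genes were higher in all 4 DKO-severe libraries when summed. Of 10 counted, 5 passed, all higher, against 9.41% of all genes, with a median of 2.11. Without DKO-severe 1 and 2, 3 passed, against 7.9% of all genes, with a median of 1.52. *Derl3* and *Eaf2* passed with all libraries only (log2 fold change 2.29 and 1.81, adjusted p = 0.0154 and 0.0348), the latter losing its call without DKO-moderate 1 or 3 or DKO-severe 1 or 2 (adjusted p = 0.0752 to 0.0993). The 3 that passed in both were *Xbp1*, *Fkbp11*, and *Txndc5*, genes of the secretory pathway. *Fkbp11* had few reads, at 0.213, 0.189, 0.248, and 0.318 CPM in the DKO-moderate mice. It was at 1.82, 1.16, 0.809, and 0.957 CPM in the DKO-severe mice, highest in DKO-severe 1 and 2. *Xbp1* was at 73.3, 96.4, 75.4, and 100.2 CPM in the DKO-moderate mice and at 159.7, 113, 139, and 134 CPM in the DKO-severe mice (log2 fold change 0.66, SE 0.13, adjusted p = 0.0064). *Igj*, the joining chain gene of secreted IgA and IgM, was at 2.15, 20.7, 5.64, and 21.3 CPM in the DKO-moderate mice and at 163, 159, 43.1, and 54.2 CPM in the DKO-severe mice and did not pass (adjusted p = 0.132), with DKO-severe 1 and 2 highest. The count was 8 without WT 3, in which *Igj* stood at 79.9 CPM, and *Igj* then passed (adjusted p = 0.0149). Over all genes, 1671 of 15959 were higher in that fit.

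Between DKO-severe 1 and 2, neutrophil genes and B cell genes lay on opposite sides of equal level. Over the 19 neutrophil genes with at least 5 CPM in either library, the level in DKO-severe 1 was 1.53 to 4.58 times that in DKO-severe 2, with a median of 2.6. Over the 17 B cell genes it was 0.067 to 1.71 times, with a median of 0.184, and *Blk* was the only one above 1. Over the 10 MHC class II genes the median was 0.302 and over 20 monocyte and macrophage genes 0.81. The mitosis genes, with a median of 1.84, and the type I interferon genes, with 0.714, had ratios of their own.

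**Figure D4:**
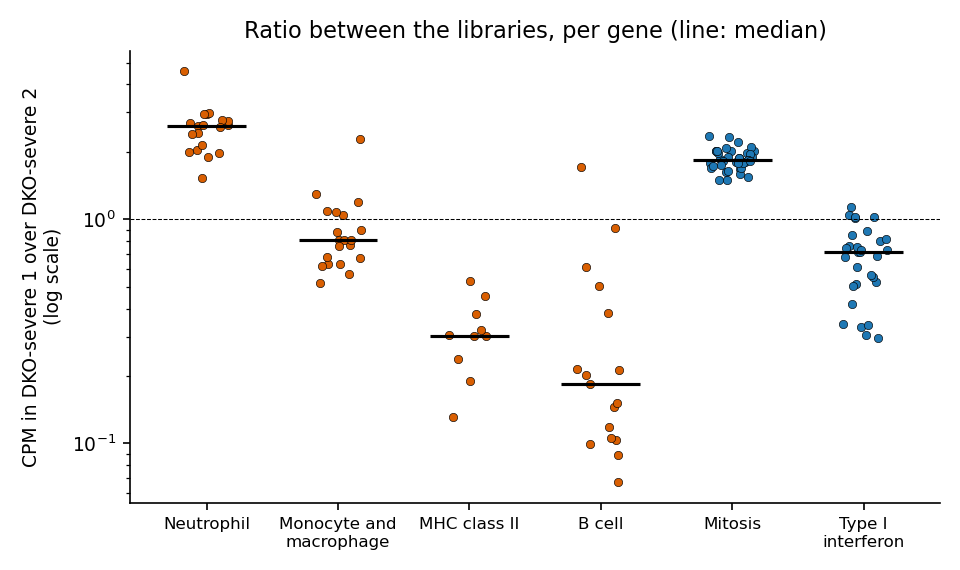
CPM in DKO-severe 1 divided by CPM in DKO-severe 2 (y axis, log scale) for each gene with at least 5 CPM in either library, by list (x axis), with a line at the median. Neutrophil genes lie above 1, at a median of 2.6, and B cell genes below it, at a median of 0.184 with *Blk* the exception.

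Set beside these levels, the pathway results divide as follows. The mitosis median was 1.75 with DKO-severe 3 and 4 alone and 1.11 with DKO-severe 1 and 2 alone. The naive and quiescence and ribosomal protein lists and *Lat* and *Igtp* differed from DKO-moderate in DKO-severe 3 and 4 alone by amounts like those with all libraries. *Ngp* was at 5.76 and 2.18 CPM in DKO-severe 3 and 4, against 536 and 182 CPM in DKO-severe 1 and 2 and at most 0.662 CPM in DKO-moderate. DKO-severe 3 and 4 were not free of transcripts on the lists for other cell types, since *Blk*, *Pax5*, *Itgam*, and *Cd5l* were raised in them. Their B cell sums of 85.0 and 166 CPM also exceeded those of DKO-moderate, but *Blk* alone gave 34.1 and 117 CPM of these. *Ms4a1* was at 0.167 and 0.0718 CPM there. Of the 18 neutrophil calls, 5 held without DKO-severe 1 and 2, and the B cell and MHC class II medians were 5.25 and 2.60 with the pair and 0.75 and 0.88 without it. *Fos*, *Junb*, and *Dusp1* were lowest in DKO-severe 1 and 2, and the share of other cell types in them was not tested. All lists for blood cells other than T cells took 0.491% and 0.429% of the reads on genes in DKO-severe 1 and 2, 0.118% and 0.116% in DKO-severe 3 and 4, and 0.0397% to 0.0690% in DKO-moderate. The neutrophil sum was higher in every DKO-severe library than in any DKO-moderate library, so its level and the group could not be separated fully within these 8 libraries. With a term for the mean level of neutrophil genes and 1 for B cell genes, 207 genes passed, and 2 of the 38 mitosis genes, at a median log2 fold change of 1.62. Under the same terms the median was -0.70 for type I interferon genes and -0.57 for ribosomal protein genes, while it moved from -0.74 to -0.41 for naive and quiescence genes and from 0.81 to 0.34 for coinhibitory receptors, the latter being 0.054 with the neutrophil term alone.

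**Figure D5:**
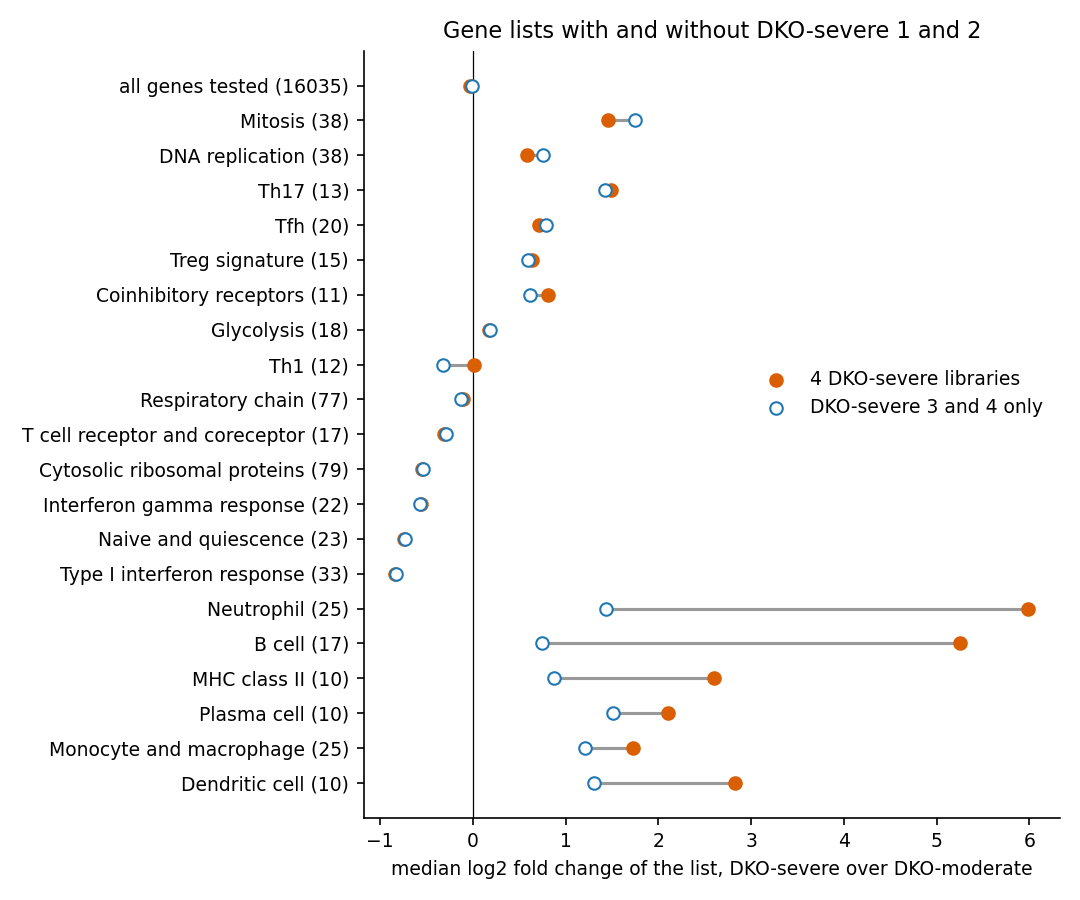
Median log2 fold change of DKO-severe over DKO-moderate (x axis) for 20 gene lists and all genes tested (y axis, number of genes tested in parentheses), with all 4 DKO-severe libraries (filled) and with DKO-severe 3 and 4 only (open). The medians for type I interferon (-0.84 and -0.83) lie close together. That for mitosis moves from 1.46 to 1.75 and that for Th1 from 0.013 to -0.32. The neutrophil median falls from 5.99 to 1.43 and the B cell median from 5.25 to 0.75. The filled values include DKO-severe 3 and 4.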

How the data were processed

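RNA of sorted CD4+ YFP- T cells from 12 mice, 4 per group, was sequenced by the authors as paired-end 150 bp stranded libraries. Reads were aligned by the authors to mm10 with STAR 2.7.11, keeping unique alignments, and counted per gene with htseq-count in reverse stranded mode. The gene annotation is not given in the sources used here. The deposited values are raw read counts for 26608 genes per library, and summary rows that name no gene were removed; these held 18.5% to 22.6% of the counted fragments in the DKO libraries.

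Genes whose reads totalled 10 or more in the 4 libraries of any condition were kept (16035). All 12 libraries were fitted with edgeR 4.0.16 (R 4.3.3) by the quasi-likelihood F test with TMM scaling and DKO-severe was contrasted with DKO-moderate at a Benjamini-Hochberg adjusted p of 0.05. SE is the log2 fold change over the root of F. The same test was repeated without DKO-severe 1 and 2. Levels are CPM with a group mean over 4 mice. On simulated data of 15756 genes for this contrast, 63% of genes changed by 1 on the log2 scale and 92% changed by 2 were recovered, with 6 false calls. There 100 genes of each size were changed, drawn from well-counted genes only, and no library was made to stand apart. These rates therefore do not cover genes with few reads or the libraries that stood apart. p-values for single values are exact and two-sided, and 4 against 4 cannot go below 0.0286. Intervals and bounds cover counting error only.

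Genes named outside the lists are the 12 largest rises and falls that held without DKO-severe 1 and 2, had groups that did not overlap, and reached a mean of 5 CPM in a group, and the 12 largest rises and 6 largest falls that did not hold. From a list, called genes by size and defining genes are named. The members and the 49 gene lists were chosen with earlier results of these data known. Other settings were DESeq2 1.42.0, limma 3.58.1 (voom with quality weights), other scalings and filters, the 8 DKO libraries alone, terms for the neutrophil, B cell, and Y-linked genes, a replicate block, and each library or pair of DKO-severe libraries left out. Promoter sequences came from RefSeq (GRCm38.p6) and gene coordinates from GENCODE vM21. Tables and figures were made with Python 3.11.15, pandas 2.3.3, and matplotlib 3.10.9. Some genes of the lists and of the naming rules are not reported here.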

Additional observations from a re-analysis of the deposited data

Results flagged for a closer look

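A library was set apart where its gap to the nearest other library of its group of 4 exceeded Dixon's 95% critical value, which chance does in about 1 of 20 groups, and 31 of the 330 groups examined did so, over 165 genes and gene lists. DKO-severe 2 stood above the rest of its group in the B cell list (584.9 CPM against 85.0 to 166 CPM), *Ms4a1* (65.1 CPM), *Cd72* (35.3 CPM), and *H2-Ob* (51.6 CPM). It also stood above in the cytotoxic list (697.7 CPM against 301 to 340.0 CPM), *Ccl5* (332 CPM), and *Nkg7* (277 CPM), and in *Cd2* (249 CPM against 208 to 212 CPM). DKO-severe 1 was high in *Lhx3* (19.8 CPM) and *Bcl3* (86.6 CPM against 65.7 to 69.0 CPM) and low in *Usp18* (2.82 CPM against 7.75 to 8.59 CPM) and *Tmie* (0.973 CPM against 4.36 to 4.96 CPM). DKO-severe 3 was high in *Cdkn1a* (41.5 CPM), and DKO-severe 4 in *Blk* (117 CPM against 17.7 to 34.1 CPM).

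DKO-moderate 4 was high in cell cycle genes, namely the DNA replication list (2376 CPM against 1662 to 1738 CPM), *Birc5* (28.7 CPM), *Cdk1* (26.4 CPM), *Mybl2* (9.64 CPM), *Rrm2* (63.7 CPM), and *Uhrf1* (55.5 CPM), and low in *Cd4* (1225 CPM against 1356 to 1368 CPM). DKO-moderate 2 held small amounts of some neutrophil transcripts that the rest of its group lacked or nearly lacked. These were *S100a9* at 1.26 CPM, *Ngp* at 0.662 CPM, *Ltf* at 0.189 CPM, *Camp* at 0.158 CPM, and *Retnlg* at 0.0315 CPM, the last 3 resting on 6, 5, and 1 reads. DKO-moderate 2 was also high in *Itgam* (11.5 CPM against 5.11 to 5.34 CPM), *Lhx3* (0.347 CPM), and *Gm17384* (0.252 CPM) and low in *Igtp* (140 CPM against 213 to 225 CPM). Other myeloid transcripts were not lower in DKO-moderate 4, with *Chi3l3* at 2.36 CPM against 2.24 CPM in DKO-moderate 2 and *Mpo* at 6.28 CPM against 2.58 CPM. DKO-moderate 3 was low in *Nfkbid* (63.5 CPM against 79.9 to 83.3 CPM).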

How the results depend on the processing

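The count of 3217 genes stayed within 1.5 times of itself with DESeq2 (4152), DESeq2's size factors (3060), library size (2907), TMM without the genes of other cell types (3202), no filter (2940), filterByExpr (3185), 10 reads in every library of a condition (3157), the 8 DKO libraries alone (2201), and a term for Y-linked genes (3185). It was 2114 without DKO-severe 1 and 2, 6126 with limma voom, 926 at an adjusted p of 0.01, and 1411 counting changes of 1 or more on the log2 scale only. With neutrophil and B cell terms together it was 207, with the neutrophil term alone 268, and with the B cell term alone 1920. Leaving out other pairs, chosen after seeing the data, gave 634 (3 and 4), 426 (1 and 3), and 379 (1 and 4). Single libraries left out gave 1646 to 3670. The cause of these shifts was not tested, beyond the smaller number of libraries in some. Under the neutrophil term, 4 genes of the text changed sign, and none of them passed there (adjusted p = 0.528 to 0.987). Without and with the B cell term, their log2 fold changes were -1.11 and -0.99 for *Chi3l3*, -0.24 and -0.024 for *Fcgr3*, -0.38 and -0.39 for *Lrg1*, and -0.61 and -0.54 for *Mmp8*. The neutrophil term is a mean over the neutrophil list, so members of that list were fitted against a mean that held them.

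Labels give each group numbers 1 to 4, and same-numbered libraries did not deviate together (residual correlations of -0.15 to 0.078). So few correlations cannot exclude that the numbers pair mice. With the replicate block, 2321 genes passed. At this depth the limit is on genes with few reads in DKO-moderate, whose fitted fold changes depend on the prior count, and bounds are given only for the 4 named genes with no read there.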
